A study of Mus musculus with 12 samples.

Results

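The interaction of interferon alpha and PD-1 blockade was examined gene by gene in 12 RNA sequencing libraries that form a 2 × 2 design. For each gene, the effect of IFNa in the presence of antiPD1 (combination over antiPD1) was set against the effect of IFNa without it (IFNa over untreated), and the difference of these 2 log2 fold changes is called the interaction. An interaction of 0 means that the 2 folds multiply; a positive value means that the combination lay above that product, and a negative value that it lay below. Genes entered when at least 3 libraries had 10 or more counts, which left 14389 of the 21878 genes in the count table (65.8%).

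The libraries came from total RNA labelled Hepa1-6, a mouse hepatoma line, with liver given as the tissue. There were 3 libraries in each of 4 groups: combination (mIFNalpha together with an anti-PD-1 antibody), antiPD1 (the antibody only), IFNa (mIFNalpha only) and untreated. Doses, times, route and host age are not analysed here. No label ties a replicate to its own animal or culture, so p-values measure only the spread between these libraries. Type I interferons bind the IFNAR receptor and act through JAK kinases and transcription factors that switch on antiviral and antigen presentation genes. PD-1 is an inhibitory receptor of activated T cells, and antibodies that block it release effector functions such as interferon gamma secretion, which in turn acts on tumour cells. Because both treatments can raise interferon response genes, a combination may give a product, a sum or a saturated response. The interaction sets the combination against the product at the level of each transcript. Where both treatments raise a gene, a sum and a saturated response can both give a negative interaction. A linear measure, used further on, sets the combination against the sum.

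Library totals lay between 31.3 and 38.5 M counts (M, mega), and values below are CPM (counts per M) scaled by TMM, the trimmed mean of M-values. Afp, the fetal serum protein typical of hepatoma cells, had 5702 to 6922 CPM in combination, 6255 to 7473 in antiPD1, 7771 to 11180 in IFNa and 9613 to 10871 in untreated libraries. Ptprc, the pan-leukocyte surface protein CD45, was present throughout, at 109 to 114 CPM in combination, 63.9 to 223.5 in antiPD1, 21.2 to 50.4 in IFNa and 30.5 to 48.8 in untreated libraries, so the RNA was not that of tumour cells only. In such bulk RNA, fewer cells of a type and less RNA per cell cannot be told apart. A pair of libraries stood apart from their groups: antiPD1 replicate 3 held the most Ptprc and lay at -73.5 on the first principal component, against -14.7 and -4.7 for the other antiPD1 libraries, and IFNa replicate 1 held the least Ptprc and lay at 52 on the second component, against -8.71 and -11.2 for the other IFNa libraries. Several results that rest on either are given with and without it, and below the libraries that stood apart are this pair. Untreated replicate 3 also lay off its group on the first component, at 17.1 against 50.3 and 48.8. It held 48.8 CPM of Ptprc, against 31.4 and 30.5 in the other untreated libraries.

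No gene passed the test of the interaction. edgeR's quasi-likelihood test called 0 genes higher (0%) and 0 lower (0%) of 14389 at a Benjamini-Hochberg adjusted p below 0.05. The smallest adjusted p was 0.157, for Pllp, and 868 genes (6.03%) had an unadjusted p below 0.05, 516 of them positive and 352 negative. DESeq2 called 61 genes on the same counts, 52 higher and 9 lower. Of these, 12 belonged to a list of pancreatic acinar genes described further on and 18 had a group whose mean lay under the level of 3 counts. The list does not hold every pancreatic gene: Reg1, Reg2 and Rnase1 were also called higher, each with a group under that level. limma with library weights and limma on the deposited FPKM values each called 0. The median interaction over all genes was -0.03 with a median standard error of 0.27, and 7781 genes (54.1%) lay below 0.

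A missed threshold does not show that the folds multiply, so the 95% interval of each gene was read as a bound. For 8307 genes (57.7%) the interval lay within a 2-fold departure in either direction, that is between -1 and 1 on the log2 scale. The median size of the interaction, regardless of sign, was 0.23, and 1371 genes (9.53%) had an estimate of more than 1 in size. The sign of the interaction was kept in all of the 12 fits that left out 1 library for 8033 genes (55.8%). For the remaining genes the direction depended on which library was left out.

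The effects behind the interaction differed in how many genes they moved. IFNa called 0 genes in the presence of antiPD1 (683 at an unadjusted p below 0.05) and 0 without it (803 at that level). AntiPD1 called 137 genes (0.952%) in the presence of IFNa, 49 higher (0.341%) and 88 lower (0.612%), and 2129 genes (14.8%) without it, 1399 higher (9.72%) and 730 lower (5.07%). These counts are not evidence that the antiPD1 effects differ, since the test of that difference is the interaction itself. They also rested on single libraries: antiPD1 alone called 5 genes when untreated replicate 1 was left out, 6 when untreated replicate 2 was, and 328 when antiPD1 replicate 3 was, and antiPD1 with IFNa called 0 without combination replicate 2 and 1424 without antiPD1 replicate 3. Across all genes, the 2 IFNa effects, which share no library, had a Pearson correlation of -0.34 and a Spearman correlation of -0.18. The 2 antiPD1 effects, which also share no library, had 0.59 and 0.66. These correlations are across genes, which are not independent replicates. They were taken with all 12 libraries and were not repeated without antiPD1 replicate 3 or IFNa replicate 1. Genes with a group under the level of 3 counts, such as Pnlip, are included.

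**Figure D1:**
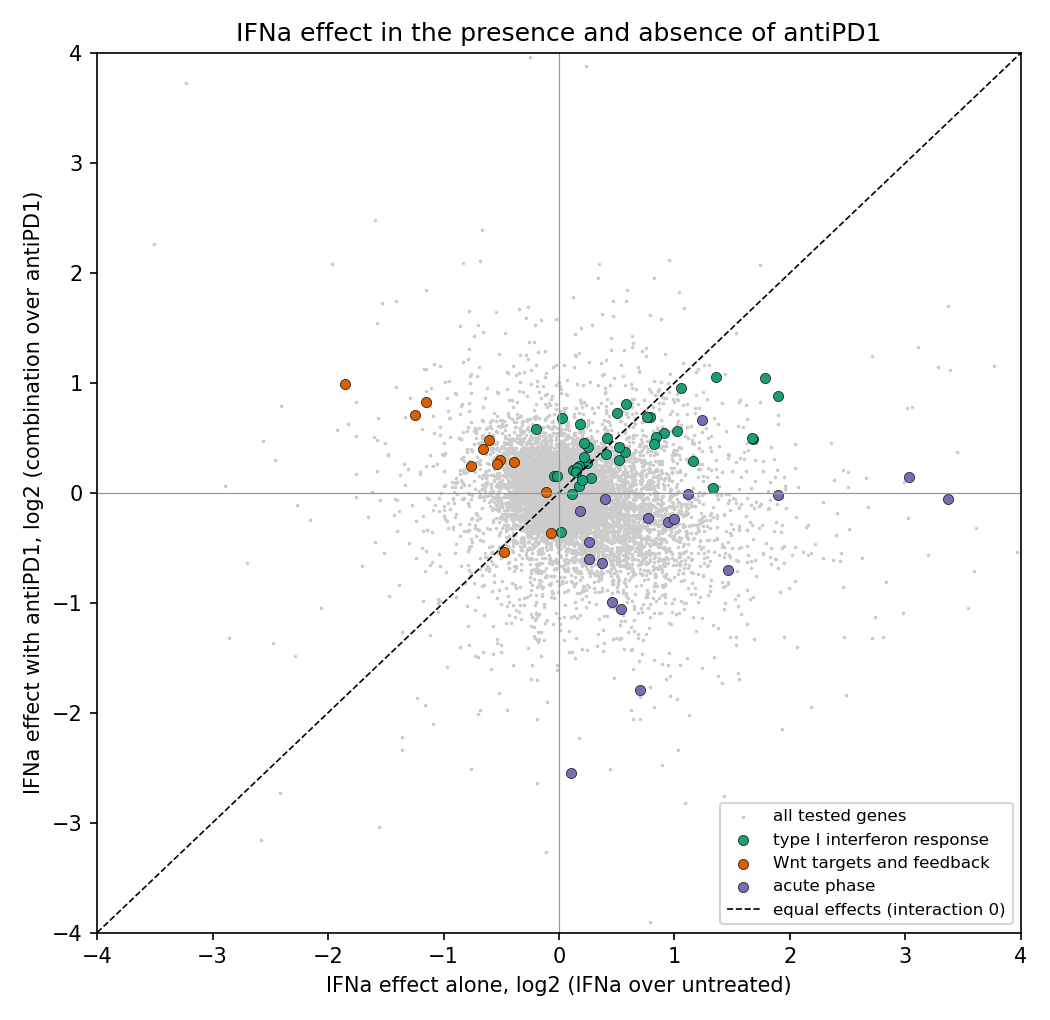
Each grey point is 1 tested gene, with its log2 IFNa effect alone (IFNa over untreated) on the horizontal axis and its log2 IFNa effect with antiPD1 (combination over antiPD1) on the vertical axis; coloured points are members of 3 lists and the dashed line marks equal effects. Most type I interferon response genes lie above 0 on both axes near the line, 10 of 12 Wnt genes lie left of 0 and above 0, and the acute phase genes lie right of 0 with 16 of 18 below 0 on the vertical axis; 41 genes lie outside the limits of 4 in size.

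The genes with the smallest p in the positive direction had lower means with each single treatment than without treatment; they were chosen by the interaction p, which favours such a shape, so this is a description. Of the 12 positive genes with the smallest p and at least 5 CPM in a group, 12 had lower means in both single treatments than in untreated libraries, and 10 had a higher mean in the combination than in either single treatment. How far the combination returned differed: it averaged 112.5 CPM for Nkd1, against 122.7 in untreated libraries, but 34.7 for Stard13, against 53.1, and 20.9 for Pbx3, against 32.2. Notum and Nkd1, 2 of the 12, belong to a list of Wnt targets and feedback genes, which is described first. Wnt proteins stabilise beta-catenin, which acts with TCF and LEF factors on target genes, and many of these targets encode inhibitors of the pathway; in liver this activity marks the cells around the central vein, and hepatomas often carry an active form of it. The membrane ligases, receptors and transcription factors of this loop are given below in that order, after the promoters of 3 of the genes.

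RefSeq promoter windows of build GRCm38.p6, from 250 bases before to 50 bases after the annotated start, were found for 16 of the 24 genes with the smallest p (12 in each direction), in 22 windows. The upstream 250 bases are shown for Kif26b (chr1:178528875-178529124, plus strand), the single gene of the positive set whose window held a motif searched for, and for Nkd1 (chr8:88527383-88527632, plus strand) and Pllp (chr8:94696243-94696492, minus strand), a pair with among the smallest p of the positive set. Capitals mark the overlapping matches to a STAT site core and a TCF/LEF site core, and a run with no capitals held none of the motifs.
Kif26b: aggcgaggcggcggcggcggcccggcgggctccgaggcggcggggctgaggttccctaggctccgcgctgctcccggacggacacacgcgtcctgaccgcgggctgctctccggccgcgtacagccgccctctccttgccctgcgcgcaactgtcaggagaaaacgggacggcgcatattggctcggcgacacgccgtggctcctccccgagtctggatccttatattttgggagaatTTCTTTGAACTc
Nkd1: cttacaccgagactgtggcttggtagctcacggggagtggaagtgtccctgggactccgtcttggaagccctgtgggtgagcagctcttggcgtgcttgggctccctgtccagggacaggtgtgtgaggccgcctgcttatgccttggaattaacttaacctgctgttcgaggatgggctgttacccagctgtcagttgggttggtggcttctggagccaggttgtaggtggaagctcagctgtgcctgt
Pllp: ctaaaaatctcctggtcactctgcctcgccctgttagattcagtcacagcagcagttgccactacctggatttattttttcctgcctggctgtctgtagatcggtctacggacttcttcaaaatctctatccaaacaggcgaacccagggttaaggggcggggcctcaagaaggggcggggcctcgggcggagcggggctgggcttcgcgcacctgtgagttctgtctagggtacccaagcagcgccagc
The interferon-stimulated response element core, searched as GAAA, any 2 bases and GAAA, was found on either strand in 0 of the 22 windows (0%), against 3.44% of all 32841 promoter windows of that length, and in 1 of 13 windows of the Wnt list (7.69%), that of Glul. The STAT site core TTCNNNGAA was found in 2 of 22 (9.09%), in Kif26b and in 1 of the windows of Tnfrsf9, against 8.3% of all windows. The TCF/LEF site core was searched as CTTTGANNT, a pattern added after the values were seen. It was found in 1 of 22 (4.55%), where it overlapped the STAT match of Kif26b, against 5.05% of all windows. In the Wnt list 0 of 13 windows held it. The pattern ends in a fixed T and so misses other forms, such as the CTTTGATCA of the Sp5 window. The 0 of 13 therefore does not show that these promoters lack TCF/LEF sites. All of these searches give matches of letters in a short window, with shares near those of all promoters, and say nothing of binding.

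Among the secreted and intracellular Wnt inhibitors, Notum, an esterase that removes the lipid from Wnt proteins, had 132, 145 and 98.2 CPM in combination libraries, 76.8, 60.2 and 52.1 in antiPD1, 30.2, 52.5 and 56.7 in IFNa, and 210.4, 209 and 84.5 in untreated libraries. Every combination and every untreated library lay above every single-treatment library. The interaction of Notum was 2.84 ± 0.49 on the log2 scale (standard error; 95% interval 1.76 to 3.92; edgeR adjusted p = 0.37), and the combination averaged 125 CPM where the product of the single folds gives 17.4. Nkd1, an inhibitor that binds Dishevelled, had 122, 131 and 84.3 CPM in combination libraries, 79.9, 64.2 and 45.2 in antiPD1, 57.7, 53.8 and 54.8 in IFNa, and 134, 146 and 87.4 in untreated libraries. Its groups were separated in the same way, and its interaction was 1.98 ± 0.34 (1.23 to 2.72; edgeR adjusted p = 0.37). Axin2, the scaffold of the beta-catenin destruction complex, had 221, 210.3 and 198 CPM in combination, 211, 157 and 82 in antiPD1, 177, 149 and 126 in IFNa, and 206, 265 and 217 in untreated libraries. For Axin2 the antiPD1 group overlapped both the combination and the untreated group, and the interaction was 1.09 ± 0.38 (edgeR adjusted p = 0.798).

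At the membrane, Znrf3, a ligase that removes Frizzled receptors, had 40.5, 40.4 and 37.6 CPM in combination, 36.8, 34 and 25.4 in antiPD1, 30.7, 35.6 and 29 in IFNa, and 53, 37.9 and 45 in untreated libraries. The combination and untreated libraries of Znrf3 again lay above all single-treatment libraries, with an interaction of 0.81 ± 0.22. Its relative Rnf43 had an interaction of 0.80 ± 0.29 (0.52 without antiPD1 replicate 3), and the R-spondin receptors Lgr5 and Lgr4 had 1.06 ± 0.38 and 0.88 ± 0.19. Lgr4 was not in the list and was chosen after its value was seen. Among transcription factors, Sp5, a target that dampens further Wnt output, had 28.5, 32.5 and 20.7 CPM in combination, 24, 16.2 and 9.74 in antiPD1, 23, 17.3 and 18.5 in IFNa, and 48.5, 60.4 and 31.2 in untreated libraries. The combination of Sp5 overlapped the single treatments and reached the untreated range in 1 library of 3, and the interaction was 1.96 ± 0.46. Tbx3, a T-box repressor active in hepatic tumours with beta-catenin mutations, had 364, 378 and 309 CPM in combination, 315, 348 and 228 in antiPD1, 307, 327 and 287 in IFNa, and 582, 536 and 438 in untreated libraries, with an interaction of 1.0 ± 0.23. For Tbx3 the combination stayed below every untreated library and overlapped both single treatments.

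Of the 12 tested members of the Wnt list (14 listed), 10 had a positive interaction and 9 had an unadjusted p below 0.05, against 6.03% of all genes, while 0 passed the test. The list was written with earlier results of these data known, and its members were measured in the same libraries. These counts are therefore a description and not independent support. The median interaction of the 12 members was 0.90, against -0.03 for all genes. It lay between 0.70 and 1.01 when each library was left out in turn, the lowest without antiPD1 replicate 3. The median IFNa effect of the list was 0.29 with antiPD1 and -0.58 alone, and its median antiPD1 effect was 0.39 with IFNa and -0.55 alone. AntiPD1 alone called 4 of the 12 lower, against 5.07% of all genes, and 1 higher, against 9.72%; among them Notum fell by 1.41 and Nkd1 fell by 0.96 on the log2 scale (edgeR adjusted p = 0.0279 and 0.0286), while Nkd2, an Nkd1 relative at 1.1 CPM or less in every library, was the one called higher. The members near or below 0 were Glul, the glutamine synthetase of cells around the central vein (0.12 ± 0.22), Lef1 (-0.07 ± 0.43) and Nkd2 (-0.30 ± 0.59). Tcf7, counted here and among T cell markers, had 0.68 ± 0.27.

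**Figure D2:**
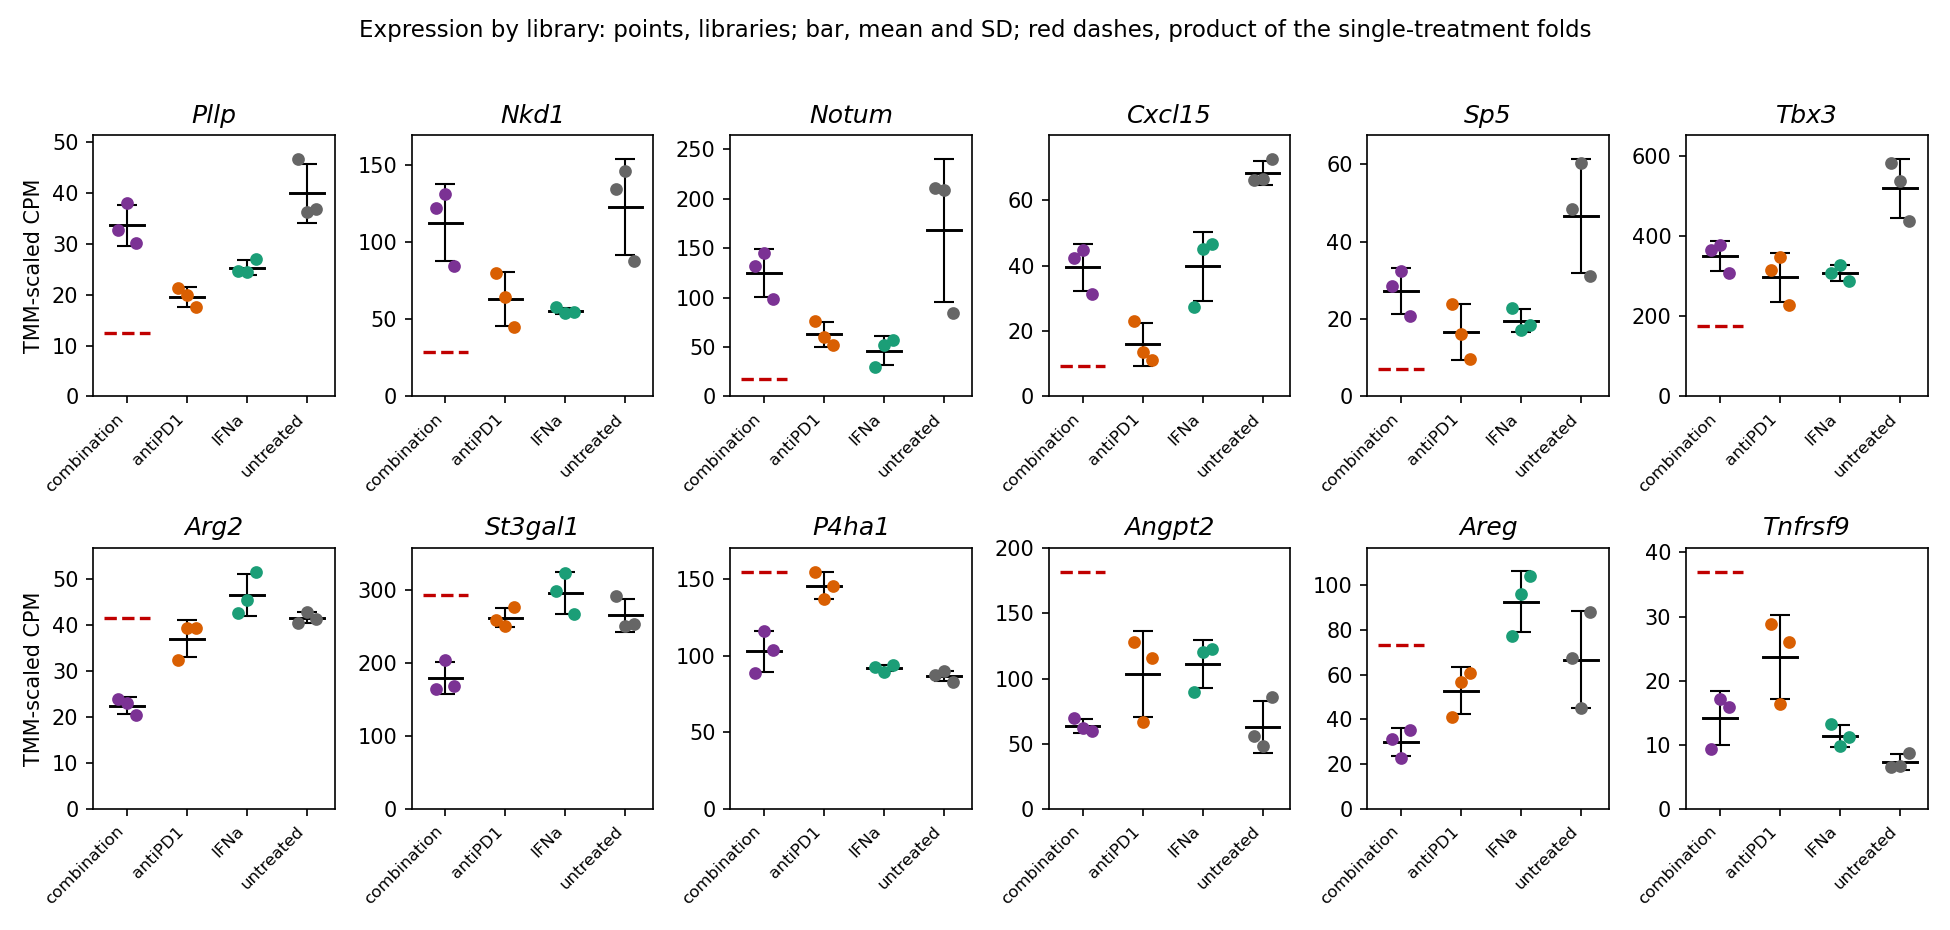
TMM-scaled CPM of 12 genes on the vertical axis, by group on the horizontal axis; points are libraries, black bars the mean and SD of 3 libraries, and red dashes the combination level that the product of the single-treatment folds gives. In the upper row, of positive interactions, the combination of Notum averages 125 CPM above a product of 17.4; in the lower row, of negative interactions, the combination of Arg2 averages 22.5 CPM below a product of 41.5.

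Outside the Wnt list, the other 10 positive genes varied in how far the combination stood above the single treatments. Pllp, the membrane protein plasmolipin, had 32.8, 38 and 30.1 CPM in combination, 21.3, 20 and 17.5 in antiPD1, 24.6, 24.4 and 27 in IFNa, and 46.7, 36.3 and 36.9 in untreated libraries. Every combination and untreated library exceeded every single-treatment library, and the interaction was 1.44 ± 0.19 (1.02 to 1.85; unadjusted p = 1.09e-05, edgeR adjusted p = 0.157, DESeq2 adjusted p = 3.49e-07). Cxcl15, a chemokine that attracts neutrophils in mice, had 42.2, 44.8 and 31.4 CPM in combination, 23.2, 13.5 and 11 in antiPD1, 27.5, 45.2 and 46.5 in IFNa, and 66.2, 66.4 and 72.6 in untreated libraries. The lowest Cxcl15 group was antiPD1, and the combination overlapped IFNa, with an interaction of 2.1 ± 0.39 (1.24 to 2.95).

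A pair of lipid enzymes was among them, although the list of fatty acid synthesis and oxidation genes had a median of -0.02 with 11 of 18 negative. Lpcat3, which builds polyunsaturated phospholipids, had 160.3, 150.2 and 133 CPM in combination, 120.5, 102 and 78.8 in antiPD1, 139.8, 123 and 112 in IFNa, and 195, 192 and 161 in untreated libraries. The combination of Lpcat3 lay between the single treatments and the untreated level, overlapping only IFNa, with an interaction of 1.11 ± 0.22. Elovl6, an elongase of saturated fatty acids, had 28.1, 21.3 and 23.8 CPM in combination, 19.4, 16.7 and 14.2 in antiPD1, 21, 19 and 17.6 in IFNa, and 33.3, 30.9 and 23.5 in untreated libraries. Its lowest combination library was just above its highest IFNa library, and the interaction was 1.15 ± 0.24. The rest of the positive set were Pls3, an actin bundling protein (1.34 ± 0.28), Stard13, a START domain protein (1.32 ± 0.27), Casz1, a zinc finger transcription factor (2.06 ± 0.42), Kif26b, a kinesin family member (1.70 ± 0.35), Pbx3, a homeobox factor (0.86 ± 0.17), and the pancreatic lipase Pnlip. Of the positive set, 12 were also called by DESeq2.

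Pnlip and other genes of the pancreatic acinar cell, which secretes digestive enzymes, were present in 4 of the 12 libraries. Pnlip had 10.6, 6.63 and 0.0276 CPM in combination, 0, 0.0554 and 0.0325 in antiPD1, 0, 0.0286 and 0.0262 in IFNa, and 0.0324, 4.74 and 3.85 in untreated libraries. Combination replicates 1 and 2 and untreated replicates 2 and 3 held it, and every other library was under the level of 3 counts, 0.0786 to 0.102 CPM, so no fold is given. Of 13 tested members of the acinar list, 12 showed these 4 libraries above the other 8, and Cela1, at 14.9 to 37.2 CPM in all libraries, did not. Untreated replicate 1, where Pnlip was under that level, had 210.4 CPM of Notum, 134 of Nkd1 and 46.7 of Pllp. Untreated replicate 2, which held Pnlip, had 209, 146 and 36.3 CPM of these genes. Untreated replicate 3, which also held it, had 84.5, 87.4 and 36.9 CPM. In the combination group the same 3 genes were higher in replicates 1 and 2, which held Pnlip, than in replicate 3. The part of acinar RNA in the other interactions was not tested further.

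A set of 38 genes (0.264%) had every combination and every untreated library on 1 side of every single-treatment library, 31 above and 7 below. Among the 31 above were Notum, Nkd1, Pllp, Znrf3, Casz1, Kif26b, Elovl6 and Pls3. Others were the replication gene Chaf1a, the transcription factor E2f8, the purine synthesis enzymes Pfas and Gart, and the short-chain fatty acid receptor Ffar2. Among the 7 below were the kinase Plk3, the co-chaperone Dnajb2 and the mitochondrial deubiquitinase Usp30. By group means alone, 1620 genes had the combination and untreated groups above both single treatments and 1145 had them below. How many genes would be placed in these ways by libraries in random order was not computed, so these counts are descriptions. Genes of this set outside the rule for named genes were picked for their roles after the values were seen.

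A negative interaction places the combination below the product of the single folds. Of the 12 negative genes with the smallest p, 9 had a combination mean below both single treatments. Both single-treatment means lay above the untreated mean in 8, and the combination mean lay below the untreated mean in 6. These genes were chosen by the interaction p, which favours such shapes, so the counts are a description. Arg2, the mitochondrial arginase, had 23.9, 23 and 20.4 CPM in combination, 32.5, 39.4 and 39.3 in antiPD1, 42.5, 45.5 and 51.6 in IFNa, and 40.4, 42.8 and 41.4 in untreated libraries. The 3 combination libraries lay below the other 9, and the interaction was -0.88 ± 0.16 (-1.23 to -0.54; edgeR adjusted p = 0.37, DESeq2 adjusted p = 0.000277). Arg2 fell by 1.05 with antiPD1 in the presence of IFNa (edgeR adjusted p = 0.0104), while antiPD1 alone gave -0.17 (adjusted p = 0.316).

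St3gal1, a sialyltransferase of O-linked glycans, had 165, 205 and 169 CPM in combination, 259, 251 and 277 in antiPD1, 299, 324 and 267 in IFNa, and 292, 250.4 and 254 in untreated libraries. Its combination libraries also lay below the other 9, with an interaction of -0.71 ± 0.16 and a fall by 0.73 with antiPD1 in the presence of IFNa (edgeR adjusted p = 0.0209). Areg, an EGF receptor ligand, had 31.2, 22.9 and 35.2 CPM in combination, 41, 56.6 and 60.9 in antiPD1, 77.4, 95.7 and 104 in IFNa, and 67.2, 44.9 and 88 in untreated libraries, with an interaction of -1.30 ± 0.35. Areg fell by 1.63 with antiPD1 in the presence of IFNa (edgeR adjusted p = 0.0209). For Areg too the combination lay below every other library.

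The other named negative genes had their highest mean with a single treatment, as Arg2, St3gal1 and Areg also had, in IFNa. P4ha1, a subunit of collagen prolyl hydroxylase, had 89, 116 and 104 CPM in combination, 155, 137 and 145 in antiPD1, 92.8, 89.5 and 93.8 in IFNa, and 87.4, 90 and 83 in untreated libraries. It rose by 0.75 with antiPD1 alone (edgeR adjusted p = 0.0127) and had 0.16 with antiPD1 in the presence of IFNa, for an interaction of -0.59 ± 0.14. Tnfrsf9, the T cell costimulator 4-1BB, had 9.33, 17.2 and 15.9 CPM in combination, 28.8, 16.3 and 26 in antiPD1, 13.2, 9.78 and 11.3 in IFNa, and 6.55, 6.67 and 8.74 in untreated libraries. The antiPD1 group was highest and overlapped the combination in 1 library, and the interaction was -1.39 ± 0.38. Angpt2, a ligand of the endothelial receptor Tie2, averaged 63.8 ± 5.49 CPM in combination, 104 ± 32.8 in antiPD1, 111 ± 18.3 in IFNa and 63.2 ± 19.8 in untreated libraries (SD, n = 3 each), with an interaction of -1.51 ± 0.37. Further negative genes, from -0.61 to -1.16, were Mpp6, Chd7, Kif21b, Wsb1 and Ahnak2. Of the negative set, 5 were called by DESeq2, namely Arg2, St3gal1, Angpt2, P4ha1 and Mpp6. All 24 genes of both sets kept their sign in each of the 12 fits without 1 library.

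The interferon response genes had a median interaction near 0, with members on both sides. Of 39 tested type I interferon response genes (40 listed), 16 had a positive and 23 a negative interaction, 0 passed and 0 had an unadjusted p below 0.05. Their median interaction was -0.10, ranging from -0.20 to 0.09 with each library left out, and single members ran from -1.30 to 0.77. For 19 of 39 the interval lay within a 2-fold departure, against 57.7% of all genes, so a product of folds was not shown for the list. The median IFNa effect of the list was 0.42 with antiPD1 and 0.42 without it, and 34 of 39 members were above 0 in both. AntiPD1 called 3 of 39 higher in the presence of IFNa, against 0.341% of all genes, and 16 of 39 without it, against 9.72%. On the linear scale, where the combination is set against the sum of the single differences, 27 of the 39 lay above 0.

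Isg15, an ubiquitin-like protein conjugated to targets after interferon, had 21.2, 16.6 and 17.5 CPM in combination, 9.01, 11.2 and 14.2 in antiPD1, 14.9, 9.64 and 11.2 in IFNa, and 5.09, 8.06 and 7.49 in untreated libraries. The combination lay above all other libraries and the product of folds gives 19.9 CPM against a measured mean of 18.4, for an interaction of -0.11 ± 0.33. Oasl2, an oligoadenylate synthetase-like protein, had 77.7, 67.5 and 89.6 CPM in combination, 38.7, 50.4 and 56.1 in antiPD1, 22.8, 37 and 33.3 in IFNa, and 11.5, 18.2 and 25.1 in untreated libraries. Its product is 82.3 CPM against a mean of 78.2 (interaction -0.07 ± 0.38), and antiPD1 raised it by 1.33 in the presence of IFNa (edgeR adjusted p = 0.0487) and by 1.41 alone (adjusted p = 0.0198). Ifit1, which binds viral RNA lacking a methylated cap, had 13, 9.13 and 10.3 CPM in combination, 5.35, 4.96 and 5.29 in antiPD1, 8.08, 4.89 and 5.56 in IFNa, and 1.62, 2.13 and 3.45 in untreated libraries. Its combination again lay above the other 9 libraries, with an interaction of -0.30 ± 0.41 (-0.66 without untreated replicate 3, -0.06 without IFNa replicate 1).

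Among other members, Irf7, the amplifier of interferon production, had -0.88 ± 0.51, but -0.41 without IFNa replicate 1 and -0.15 with antiPD1 replicate 3 left out as well. Usp18, the protease that restrains the receptor, had 0.19 ± 0.19, bounded between -0.23 and 0.61 (0.07 to 0.30 with each library left out). Eif2ak2, the RNA-sensing kinase PKR and the list member with the smallest p, had 76, 65.1 and 75.4 CPM in combination, 56.6, 51.5 and 26.8 in antiPD1, 59.2, 72.7 and 62.3 in IFNa, and 60.4, 65.6 and 64.1 in untreated libraries (0.65 ± 0.31, or 0.36 without antiPD1 replicate 3). AntiPD1 libraries of Eif2ak2 lay below all others. The 23 interferon gamma GTPases and IRF1 targets had a median of -0.04, with 4 of 23 bounded within 2-fold. A product of folds was therefore not shown for that list either. The 12 receptors and signalling genes had a median of 0.01, with members from -0.67 to 0.38 and 10 of 12 bounded within 2-fold. The signs of Isg15, Oasl2 and Ifit1 changed under some settings, as listed in the closing section.

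**Figure D3:**
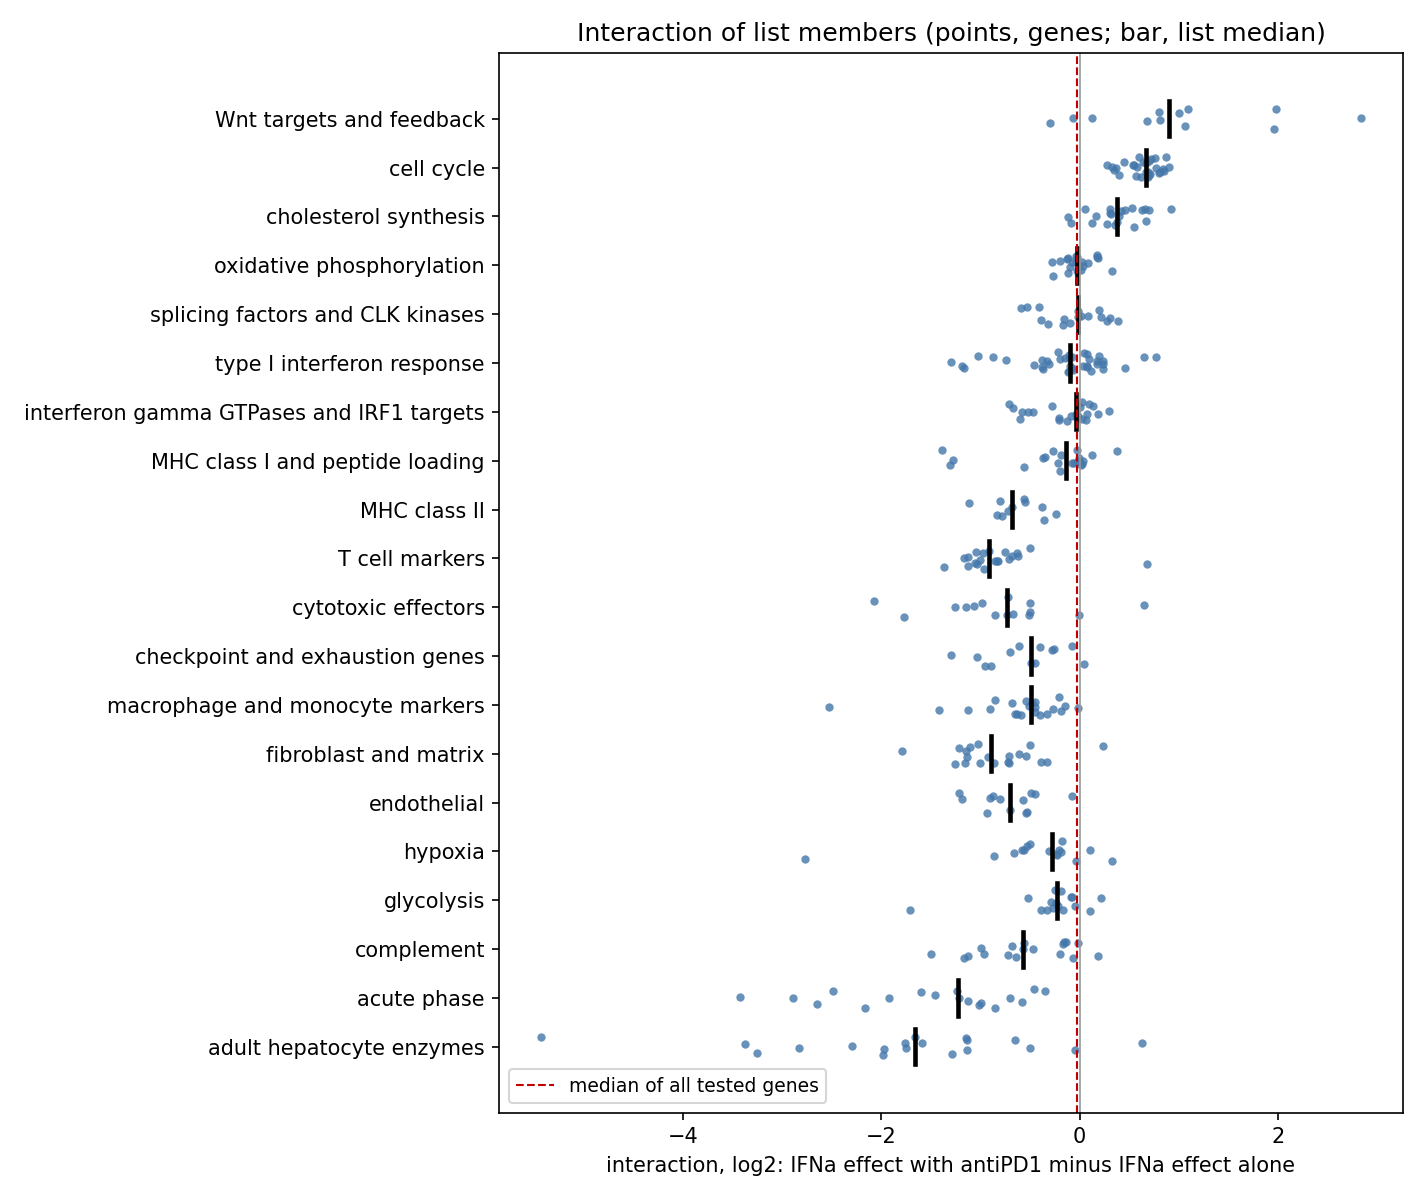
Log2 interaction of each tested member (points) of 20 lists, with the list median as a black bar and the median of all tested genes, -0.03, as a red dashed line. The Wnt, cell cycle and cholesterol lists lie to the right with medians of 0.90, 0.67 and 0.38, oxidative phosphorylation and interferon lists lie near 0, and immune, stromal, acute phase and hepatocyte lists lie to the left.

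Several immune cell lists had negative medians that shrank or changed sign without antiPD1 replicate 3. T cell markers had a median of -0.92 (20 of 21 negative), cytotoxic effectors -0.73 (14 of 15), macrophage and monocyte markers -0.49 (22 of 22), checkpoint genes -0.49 (12 of 13) and MHC class II genes -0.69 (11 of 11), with 0 members called. Below an unadjusted p of 0.05, as were 6.03% of all genes, lay 2 cytotoxic effectors and 1 T cell marker, the positive Tcf7. Without antiPD1 replicate 3 these medians were -0.18, -0.34, 0.19, 0.11 and 0.10, in the same order, and with IFNa replicate 1 left out as well they were -0.58, -0.68, 0, -0.08 and -0.34. MHC class I genes had a median of -0.13 (15 of 20 negative), which was 0.15 without that library. Mast cell markers went the other way, with a median of 1.39, 5 of 6 positive and 2 below an unadjusted p of 0.05, and 0.90 to 1.81 with each library left out, but 5 of the 6 had a group under the level of 3 counts (median 1.47 with those at that level). Their summed level was 16.3 to 25 CPM in combination, 9.7 to 28 in antiPD1, 5.37 to 12.1 in IFNa and 2.59 to 6.84 in untreated libraries. The summed T cell markers ran from 260 to 315 CPM in combination, 193 to 541 in antiPD1, 108 to 199 in IFNa and 161 to 176 in untreated libraries, and the summed macrophage markers from 2400 to 3027, 1814 to 6645, 777 to 1205 and 725 to 1179 CPM in the same groups. In both sums antiPD1 replicate 3 was the highest library and IFNa replicate 1 was the lowest or among the lowest.

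Single members show the same dependence. Cd8a, a CD8 chain of cytotoxic T cells, had 17.6, 20 and 22.2 CPM in combination, 12.3, 23.7 and 41.4 in antiPD1, 3.18, 8.95 and 8.99 in IFNa, and 5.32, 5.86 and 5.53 in untreated libraries. The combination lay inside the antiPD1 range, and the interaction was -0.71 ± 0.60, or -0.23 without antiPD1 replicate 3. Cd274, the PD-1 ligand PD-L1, had 67.7, 58.3 and 94.4 CPM in combination, 56.5, 50 and 167 in antiPD1, 25.9, 34 and 32 in IFNa, and 20.2, 24.6 and 36.6 in untreated libraries. Its interaction was -0.49 ± 0.59 and turned to 0.26 without that library. H2-K1, a classical MHC class I heavy chain whose paralogs can share reads, had -1.39 ± 0.69 (-0.41 without it), Cxcl9, a T cell attracting chemokine, had -1.08 ± 0.82 (-0.12), Pdcd1, which encodes PD-1, had -0.90 ± 0.81 (-0.12), and the macrophage lysozyme Lyz2 had -1.13 ± 1.0 (0.24). The 4 Y-linked genes, which report on male cells, moved with these lists: their summed level was 30.6 to 52 CPM in combination, 26.2 to 94.3 in antiPD1, 15.4 to 27.3 in IFNa and 9.96 to 21.8 in untreated libraries, highest in antiPD1 replicate 3. Their part in the result was not tested beyond a fit with their level as a covariate, which called 0 interactions.

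Gzma depended less on that library. Gzma, a serine protease of cytotoxic granules, had 2.28, 1.48 and 1.99 CPM in combination, 6.74, 3.63 and 4.19 in antiPD1, 1.74, 3.20 and 4.06 in IFNa, and 2.11, 1.39 and 1.92 in untreated libraries. All antiPD1 libraries lay above all combination and untreated libraries, and the interaction was -2.07 ± 0.52 (-3.21 to -0.93; edgeR adjusted p = 0.497), lying between -2.34 and -1.76 with each library left out. Gzmb, its relative, had -1.25 ± 0.51 with a range of -1.49 to -0.74. Ifng, the cytokine of activated T and NK cells, had 2.40, 2.97 and 3.86 CPM in combination, 1.81, 2.69 and 4.87 in antiPD1, 0.39, 1.0 and 1.62 in IFNa, and 0.487, 0.474 and 0.581 in untreated libraries (interaction -0.99 ± 0.70; -0.47 without IFNa replicate 3, -0.55 without antiPD1 replicate 3 and -1.37 without IFNa replicate 1). Combination and antiPD1 levels of Ifng overlapped fully. Jchain, the joining chain of secreted IgM and IgA from plasma cells, had 27.7, 22.3 and 22.1 CPM in combination, 21.6, 41.6 and 56.6 in antiPD1, 1.11, 2.06 and 2.59 in IFNa, and 1.82, 1.12 and 2.14 in untreated libraries. It rose with antiPD1 by 3.64 in the presence of IFNa (edgeR adjusted p = 0.0104) and by 4.56 alone (adjusted p = 0.00257), and its interaction was -0.92 ± 0.53, or -0.61 without antiPD1 replicate 3.

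Adult hepatocyte and acute phase genes had the most negative medians of the 38 lists, and both depended on the libraries that stood apart. Acute phase genes, which hepatocytes secrete under IL-6 and IL-1, had a median of -1.22 with 18 of 18 negative and 3 below an unadjusted p of 0.05, and adult hepatocyte enzymes -1.66 with 18 of 19 negative. Without antiPD1 replicate 3 these medians were -0.20 and -0.30, without IFNa replicate 1 they were -0.66 and -0.58, and without both they were 0.33 and 0.53. Saa2, a serum amyloid A protein, had 856, 398 and 410.3 CPM in combination, 133, 238 and 1365 in antiPD1, 41.3, 39.9 and 36 in IFNa, and 1.82, 7.45 and 2.14 in untreated libraries. IFNa libraries exceeded all untreated ones, while combination and antiPD1 overlapped, and the interaction was -3.43 ± 1.13, or -1.82 without antiPD1 replicate 3. Saa3, the form made outside the liver as well, had 47.7, 22.5 and 29.9 CPM in combination, 32.4, 81.8 and 473 in antiPD1, 1.83, 1.86 and 2.02 in IFNa, and 2.63, 1.22 and 1.5 in untreated libraries, with an interaction of -2.65 ± 1.17, or -0.90 without antiPD1 replicate 3.

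Arg1, the urea cycle arginase of hepatocytes and some macrophages, had 129.7, 35.3 and 58.6 CPM in combination, 174, 41.2 and 338 in antiPD1, 227, 33.9 and 33.9 in IFNa, and 9.5, 19.7 and 47.1 in untreated libraries. Its high libraries were antiPD1 replicates 1 and 3, IFNa replicate 1 and combination replicate 1. The adult hepatocyte enzymes summed to 2553, 621 and 1040.1 CPM in combination, 1105, 556 and 4364 in antiPD1, 2316, 626 and 580.1 in IFNa, and 447, 521 and 834 in untreated libraries, highest in those same 4 libraries. The part of normal liver RNA in these interactions was not tested. C3, the central complement protein, had 5468, 4733 and 4244 CPM in combination, 4509, 4070.2 and 7814 in antiPD1, 3609, 12858 and 9841 in IFNa, and 4384, 4005 and 4951 in untreated libraries. IFNa replicates 2 and 3 held the highest C3 levels of all libraries, and its interaction was -1.16 ± 0.54.

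**Figure D4:**
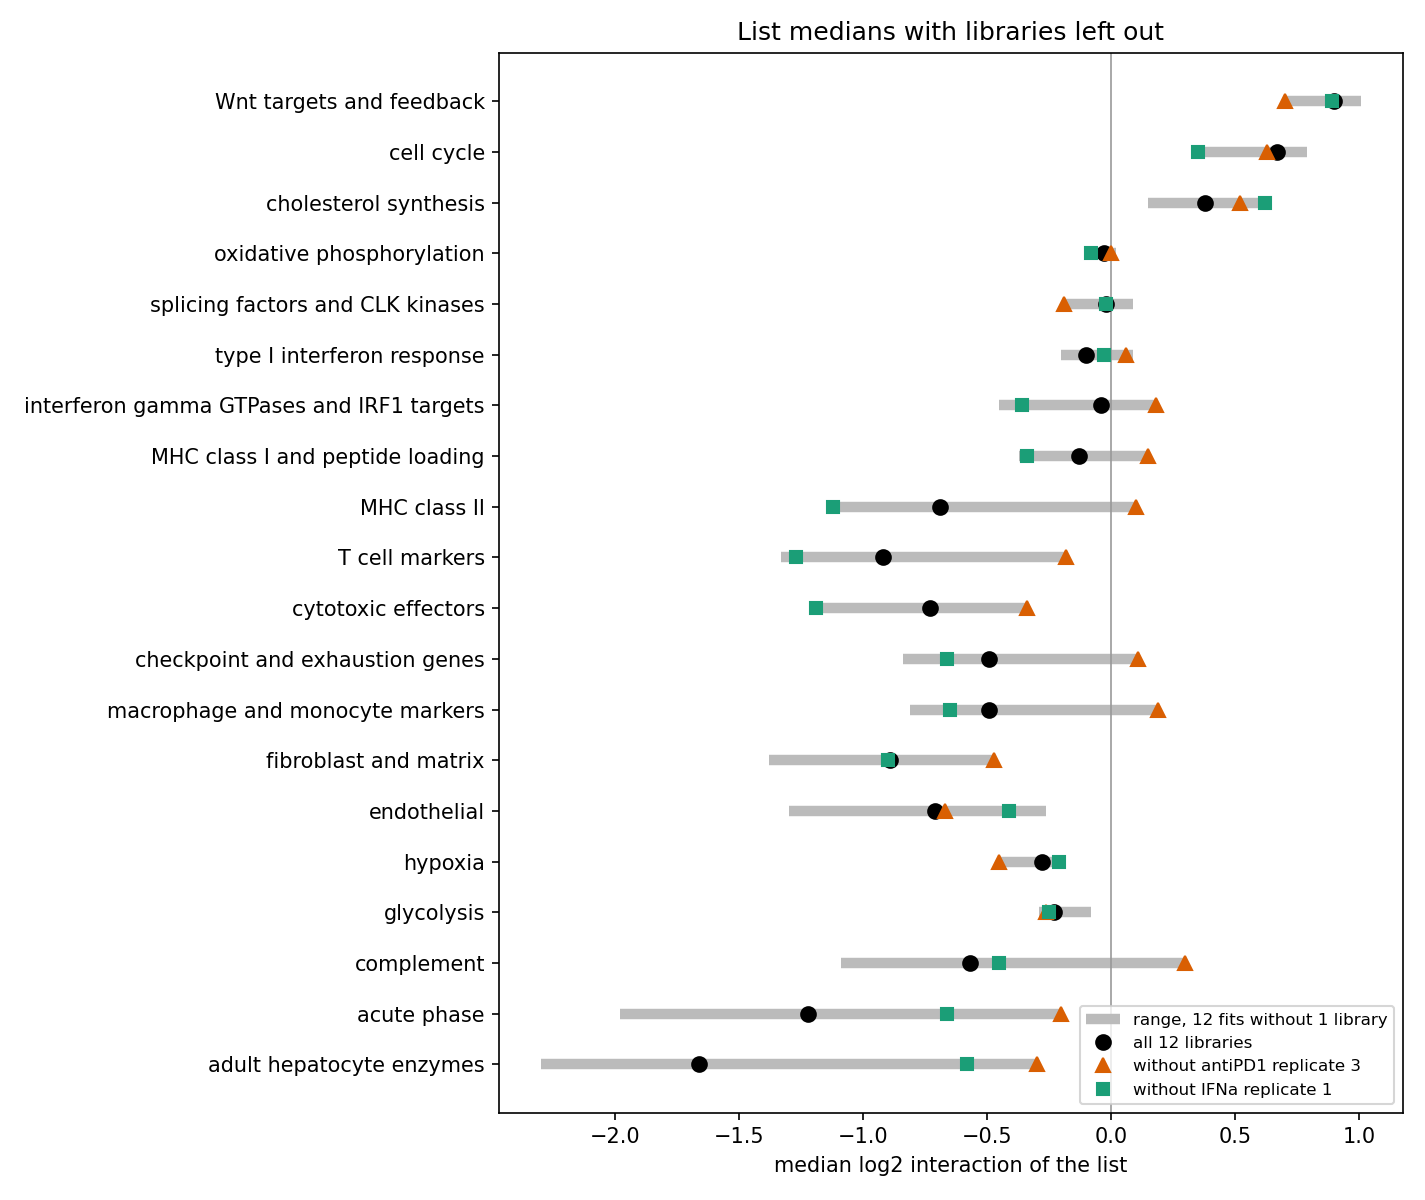
Median log2 interaction of 20 lists (horizontal axis) with all 12 libraries (black circles), without antiPD1 replicate 3 (orange triangles) and without IFNa replicate 1 (green squares); grey bars span the 12 fits without 1 library. The Wnt list spans 0.70 to 1.01 and stays right of 0, while MHC class II genes span -1.12 to 0.10 and acute phase genes -1.98 to -0.20.

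Cell cycle and cholesterol genes had mostly positive interactions. The cell cycle genes summed to 3094 to 3165 CPM in combination, 2302 to 2796 in antiPD1, 1511, 3417 and 3279 in IFNa, and 3207 to 3924 in untreated libraries, so IFNa replicates 2 and 3 lay within the untreated range and replicate 1 below it. All 29 cell cycle genes had a positive interaction, with a median of 0.67 and 7 below an unadjusted p of 0.05, and the median was 0.35 without IFNa replicate 1. Cenpf, a kinetochore protein, had 76.1, 82.3 and 79.9 CPM in combination, 56.4, 65.6 and 47.2 in antiPD1, 44.3, 95.2 and 71.6 in IFNa, and 100.1, 79.9 and 100.8 in untreated libraries (interaction 0.90 ± 0.32). Ccnb1, the mitotic cyclin B1, had 68.7, 71.3 and 69.7 CPM in combination, 54.1, 59.4 and 46.6 in antiPD1, 40.1, 88.9 and 86.9 in IFNa, and 112, 82.5 and 99.8 in untreated libraries (0.84 ± 0.35, or 0.55 without IFNa replicate 1). In both genes antiPD1 lay below the combination in every library, and IFNa replicate 1 stood below every other library. Cholesterol synthesis genes had a median of 0.38 with 19 of 21 positive, from 0.15 without combination replicate 1 to 0.62 without IFNa replicate 1. Their sums were 1642 to 2156 CPM in combination, 1523 to 1787 in antiPD1, 1652 to 2162 in IFNa and 2012 to 2582 in untreated libraries, with the 3 treated groups overlapping. Sqle, the squalene epoxidase of that pathway, had 236, 264 and 231 CPM in combination, 236, 252 and 171 in antiPD1, 233, 221 and 226 in IFNa, and 374, 349 and 272 in untreated libraries. Only the untreated group stood apart for Sqle, above all 9 treated libraries, and the interaction was 0.70 ± 0.21.

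The summed level of hypoxia genes was lowest in the combination, and most glycolysis genes had negative interactions. The 16 hypoxia genes summed to 2161, 2239 and 2433 CPM in combination, 3645, 3380 and 3130 in antiPD1, 3355, 3048 and 3090 in IFNa, and 4243, 3574 and 3003 in untreated libraries, with no combination library reaching any other. Their median interaction was -0.28, with 14 of 16 negative and 3 below an unadjusted p of 0.05, and the median IFNa effect was -0.45 with antiPD1 and -0.17 alone. Not every member was lowest in the combination. P4ha1, the member with the smallest p, averaged 103 CPM there, above 92 in IFNa and 86.8 in untreated libraries. Vegfa, the endothelial growth factor induced by HIF, had 359, 347 and 433 CPM in combination, 591, 684 and 579 in antiPD1, 513, 511 and 544 in IFNa, and 725, 504 and 540.0 in untreated libraries. The combination lay below all other libraries, and the interaction was -0.53 ± 0.20. Ndrg1 (-0.67 ± 0.30) and Bnip3 (-0.56 ± 0.32), both HIF targets, were likewise negative, at -0.42 and -0.29 without untreated replicate 3; Vegfa, Ndrg1 and Bnip3 were chosen after their values were seen.

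The glucose carrier Slc2a1 had 204, 206 and 250 CPM in combination, 376, 370.0 and 380.3 in antiPD1, 422, 326 and 332 in IFNa, and 501, 477 and 303 in untreated libraries, again lowest in the combination (interaction -0.53 ± 0.25, or -0.33 without untreated replicate 3). Glycolysis genes had a median interaction of -0.23 with 14 of 16 negative, between -0.29 and -0.08 with each library left out, and hexokinase Hk2 had -0.29 ± 0.18. The 20 oxidative phosphorylation genes had a median of -0.03 and all 20 intervals lay within a 2-fold departure. The same held for the intervals of 13 of 16 glycolysis and 11 of 16 hypoxia genes, against 57.7% of all genes. Of the glycolysis genes, 1 had an unadjusted p below 0.05, against 6.03% of all genes.

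Over all genes the choice of scale changed few signs, but the interferon lists moved more. A log2 interaction asks whether folds multiply, and a linear one whether differences add. For 534 genes (3.71%) the 2 signs differed, 385 of them negative on the log2 scale and positive on the linear one and 149 the reverse. Of the 39 type I interferon response genes, 16 lay above 0 on the log2 scale and 27 on the linear one. Of the 23 interferon gamma GTPases and IRF1 targets, 9 lay above 0 on the log2 scale and 15 on the linear one. Isg15 is a case of the first kind, at -0.11 on the log2 scale and 1.93 CPM above the sum of the single differences. Oasl2 was 17.1 CPM above the sum. Notum (183.5 CPM) and Arg2 (-19.6 CPM) had the same sign on both.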

How the data were processed

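Total RNA of 12 mouse libraries was sequenced, 3 each labelled as combination, antiPD1, IFNa and untreated. The tools named per the submitters' processing notes are Cufflinks, HTSeq and HISAT2 (2.1.0), with the mm10 build. The annotation and the strand setting are not stated there. The authors deposited whole-number read counts per gene, and their FPKM values (length- and depth-scaled fragments) for the same genes.

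Counts of 14389 genes with 10 or more counts in 3 or more libraries were scaled by TMM and fitted with 1 mean per group in R 4.3.3 with edgeR 4.0.16 (robust quasi-likelihood test), with Benjamini-Hochberg adjustment over all tested genes in each of 5 comparisons. Standard errors and 95% intervals are from that fit. The procedure was tested on simulated data. Alternatives were DESeq2 1.42.0, limma 3.58.1 (voom with library weights, and its trend fit on FPKM values at pseudocounts of 1 and 0.1, with FPKM of 1 or more in 3 libraries), other scalings and filters, a Y-linked covariate, the replicate number as a block, and leaving out libraries. Same-numbered libraries were not treated as pairs in the main fit. Of 18 same-numbered pairs across groups, 8 had deviations correlated above 0.1 (range -0.29 to 0.60). Libraries with unlike numbers were not compared, so these values do not decide whether the numbers mark pairs. All replicate libraries differed beyond counting error. Library totals of 31.3 to 38.5 M put 3 counts at 0.0786 to 0.102 CPM; this floor covers counting error only.

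Named genes are the 12 with the smallest interaction p in each direction among genes with a mean of 5 or more CPM in a group, 38 fixed genes, and the member of each of 38 lists (587 genes) with the smallest p; from each set the text gives examples, and some of these genes are not reported here. The 38 fixed genes ran from -3.43 to 2.84, 31 of them below 0. Rule, members and lists were chosen with earlier results of these data known. Of the listed genes, 4 were not in the table used here and 21 were not tested. Promoters are from RefSeq (GRCm38.p6) and gene positions from GENCODE M21.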

Additional observations from a re-analysis of the deposited data

How the results depend on the processing

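The count of 0 interactions called higher held under every alternative except DESeq2 (52). The count called lower was 0 except with DESeq2 (9), without IFNa replicate 1 (range 0 to 1) and with that library and antiPD1 replicate 3 both left out (2). Other totals moved. DESeq2 called 32 genes for IFNa alone, 22 for IFNa with antiPD1, 3320 for antiPD1 alone and 1654 for antiPD1 with IFNa. The Y-linked covariate gave 1 for antiPD1 alone and 18 with IFNa. Log2(FPKM + 1) gave 977 for antiPD1 alone, log2(FPKM + 0.1) 1063, and log2(FPKM + 1) with no filter 785, where 15362 genes of 17897 were bounded within 2-fold. Library weights in voom gave 3482 for antiPD1 with IFNa. With both libraries that stood apart left out, 5 genes were called for IFNa alone, 1301 for antiPD1 with IFNa, and 949 genes differed in sign between scales, against 809 with no low-count filter. With each library left out, counts ran from 0 to 3 for IFNa alone (3 without IFNa replicate 1), 5 to 3024 for antiPD1 alone, 0 to 1424 for antiPD1 with IFNa, 7718 to 8710 for bounded genes and 459 to 844 for sign differences. The causes were not tested.

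With the replicate number as a block, antiPD1 with IFNa called 542 genes and the interaction 0. The labels do not say what the shared numbers stand for.

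Signs of small interactions turned. Isg15 was 0.21 with voom, 0.12 with the covariate and 0.23 with both libraries left out (-0.28 to 0.09). Oasl2 was 0.06 on log2(FPKM + 1), filtered or not, and 0.05 with the covariate (-0.37 to 0.17), and Ifit1 was 0.03 on log2(FPKM + 1), filtered or not. Cd274 was 0.19 with the covariate and 0.15 with both left out (-0.78 to 0.26), and Nkd2 was 0.09 and 0.18. With each library left out, Lef1 ran from -0.30 to 0.24, Glul from -0.03 to 0.27 and Lyz2 from -1.78 to 0.24. With 3 libraries a group, the median standard error of 0.27 limits what the test can call.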

Other observations

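The genes called lower when libraries were left out lie side by side with C3. Gpr108, a Golgi membrane protein, passed without IFNa replicate 1 (log2 interaction -1.17, edgeR adjusted p = 0.0498), and Gpr108 (-1.18, adjusted p = 0.027) and the endocytosis adaptor Trip10 (-1.72, adjusted p = 0.027) passed with that library and antiPD1 replicate 3 both left out. With all 12 libraries they had -0.92 ± 0.28 and -1.19 ± 0.47. In GENCODE M21 (mm10), C3 (chr17:57203970-57228136, minus strand), Gpr108 (chr17:57234635-57248446, minus strand) and Trip10 (chr17:57249455-57263665, plus strand) are consecutive protein-coding genes. Gpr108 had 46.2, 49.8 and 47.6 CPM in combination, 57.1, 51.2 and 57.4 in antiPD1, 60.6, 114 and 112 in IFNa, and 56.1, 64.4 and 54.4 in untreated libraries. Trip10 had 99.7, 114 and 125 CPM in combination, 125, 146 and 100.2 in antiPD1, 114, 334 and 338 in IFNa, and 133, 138 and 105 in untreated libraries. For both genes, as for C3, IFNa replicates 2 and 3 lay above all other libraries and IFNa replicate 1 did not.

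Genes outside the lists that DESeq2 called, chosen after their values were seen, had positive interactions of other shapes. Avpr1a, the hepatic vasopressin receptor, had 104, 102 and 65.5 CPM in combination, 80.1, 77.7 and 75.6 in antiPD1, 61.2, 90.3 and 94.4 in IFNa, and 270.3, 206 and 133 in untreated libraries (interaction 1.53 ± 0.36). For Avpr1a the untreated group stood alone. Cyp1a1, the cytochrome induced through the aryl hydrocarbon receptor, had 39.4, 41.5 and 28.1 CPM in combination, 17.2, 17.2 and 17.3 in antiPD1, 20.7, 51.7 and 60.5 in IFNa, and 98.9, 67.6 and 59.3 in untreated libraries (1.84 ± 0.47). Here antiPD1 was the lowest group. C1s2, a copy of the complement protease C1s whose reads may be shared with C1s1, had 31.1, 32 and 24.1 CPM in combination, 20.3, 17.8 and 17.1 in antiPD1, 15.5, 25.8 and 24.6 in IFNa, and 33.3, 30.3 and 30.6 in untreated libraries (1.17 ± 0.26), unlike C3 and the complement list, whose median was -0.57.

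Stromal lists leaned negative. Fibroblast and matrix genes had a median of -0.89 with 19 of 20 negative (-1.38 to -0.47 with each library left out), and endothelial genes -0.71 with 13 of 13 negative (-1.30 to -0.26). Col1a1, the main fibrillar collagen chain, had 567, 494 and 634 CPM in combination, 831, 534 and 1497 in antiPD1, 484, 483 and 538 in IFNa, and 239.9, 173 and 648 in untreated libraries. Its groups overlapped, with an interaction of -1.26 ± 0.65, from -2.04 without untreated replicate 3 to -0.81 without antiPD1 replicate 3.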
